A study of Mus musculus with 5 samples.

Results

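Reactive oxygen clearing enzymes were followed through their messenger RNA in visceral fat of mice. The set held 10 genes of 78334 gene identifiers in the deposited count table, taken by name: the superoxide dismutases Sod1, Sod2 and Sod3, the catalase gene Cat, and the peroxiredoxins Prdx1 to Prdx6. All 10 were among the 24779 genes with enough counts to be tested. The 5 libraries came from visceral adipose tissue of male C57BL/6 mice, an inbred strain. Resveratrol, the polyphenol of grape skin, was given daily through a gastric tube for 28 days at 2.25 mg/kg to the mice behind 2 libraries (resveratrol group), on food in which fat supplied 60% of the energy. Another 2 libraries came from the same high-fat diet with vehicle alone (obesity group). A single library from standard chow with vehicle formed the control group. The high-fat diet began at 8 weeks of age and had run for 8 weeks when treatment began at 16 weeks of age. Tissue was collected after 12 weeks in all. Whether libraries of 1 group represent different animals is not stated in the labels, so p-values measure only the spread between these libraries, which may be technical. Levels are in CPM, the counts of a gene relative to the library size after scaling by the trimmed mean of M values (TMM), and errors marked ± are SDs (n = 2).

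Superoxide, a by-product of respiration and the direct product of NADPH oxidases, is turned into hydrogen peroxide by superoxide dismutases. Catalase in peroxisomes splits hydrogen peroxide into water and oxygen, and peroxiredoxins reduce it through a reactive cysteine that thioredoxin or glutathione then restores. In fat, hydrogen peroxide is both a damaging agent and a signal in the insulin response, and both adipocytes and resident macrophages make these enzymes.

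The libraries differed in tissue content, which bears on every value below. Total counts ranged from 19540961 to 27026597. The 12 adipocyte markers summed to 6205 and 27568 CPM in resveratrol libraries 1 and 2, to 24212 and 27905 CPM in obesity libraries 1 and 2, and to 498 CPM in the control library, so the defining transcripts of the labelled tissue were scarce there. The 10 macrophage markers summed to 541 and 3425 CPM with resveratrol, to 3124 and 2876 CPM in obesity and to 202 CPM in control. The 12 epididymis markers, genes of the duct in which sperm mature, summed to 61829 CPM in control, to 3415 CPM in resveratrol library 1 and to at most 22.3 CPM in the other libraries. In resveratrol library 1 Crisp1 alone made up 3397 CPM of this sum, and each of the other 11 was at 11.5 CPM or less. The 10 smooth muscle markers summed to 55780 CPM in resveratrol library 1 and to 1239 to 2635 CPM elsewhere. Endothelial markers summed to 238 and 1201 CPM with resveratrol, to 698 and 601 CPM in obesity and to 186 CPM in control. Erythrocyte markers summed to 203 and 1110 CPM with resveratrol, to 723 and 514 CPM in obesity and to 238 CPM in control. On both these lists resveratrol library 2 lay above both obesity libraries.

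The members comprised a pair that varied widely and a larger group that did not. Sod3 and Cat spanned a 41.6-fold and a 25.8-fold range between the highest and the lowest library. Prdx6 spanned 2.86-fold, and the other members spanned 1.32-fold (Prdx2) to 2.29-fold (Prdx5). In bulk tissue, fewer cells of a type and less RNA per cell cannot be told apart. Both Sod3 and Cat were low in the control library and in resveratrol library 1, where the adipocyte markers stood at 1.91% and 23.8% of the obesity mean and the macrophage markers at 6.74% and 18.0%. The part of tissue content in these differences was not tested.

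**Figure D1:**
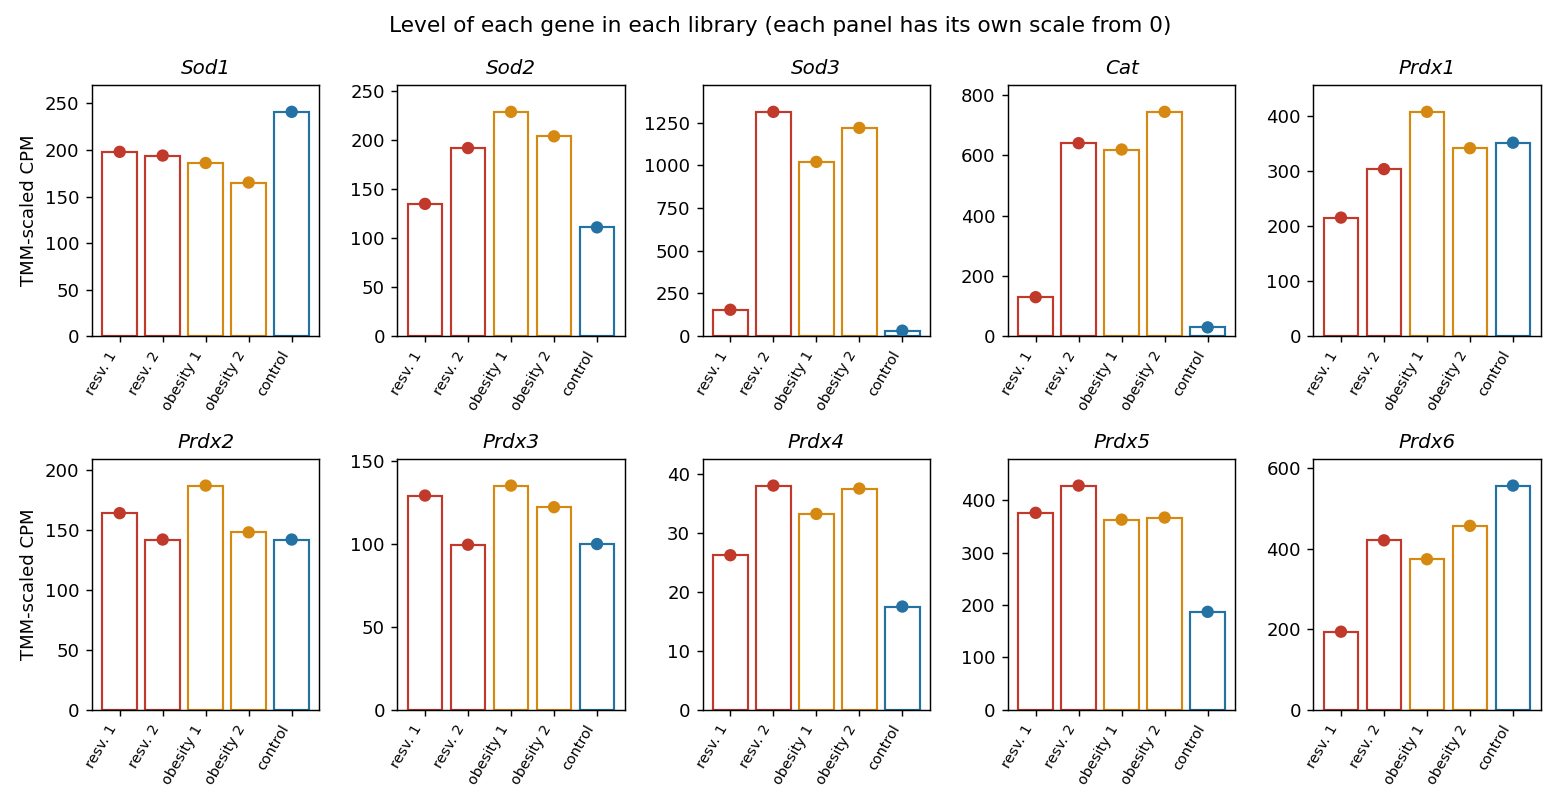
Level of the 10 genes in each library, in TMM-scaled CPM on a linear axis from 0 in every panel; each bar and point is 1 library, in red for resveratrol, orange for obesity and blue for control. Sod3 and Cat stand at 154 and 129 CPM in resveratrol library 1 and at 31.6 and 28.8 CPM in control, far below the remaining libraries.

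Sod3, the gene for the secreted copper and zinc superoxide dismutase that binds to the extracellular matrix, was at 154 and 1313 CPM with resveratrol, at 1020 and 1219 CPM in obesity, and at 31.6 CPM in control (95% exact interval 29.5 to 33.7 CPM). The resveratrol libraries lay on either side of the obesity libraries, 8.53-fold apart from each other. Control lay below all of them, and both obesity libraries averaged 35.5-fold higher than it (1119 ± 140 CPM, n = 2). Sod1, the gene for the cytosolic copper and zinc enzyme, was at 198 and 194 CPM with resveratrol, at 186 and 165 CPM in obesity and at 241 CPM in control. Both resveratrol libraries lay narrowly above both obesity libraries, and control lay above all. Sod2, the gene for the manganese enzyme of the mitochondrial matrix, was at 135 and 192 CPM with resveratrol, at 229 and 204 CPM in obesity and at 111 CPM in control. The resveratrol and obesity libraries did not overlap, and both stood above control.

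The makeup of the superoxide dismutase family differed between libraries. Levels between genes are given per kilobase of the principal transcript, taken from the GENCODE M21 annotation. On that scale Sod3 held 11% and 51.1% of the family sum in resveratrol libraries 1 and 2, then 45.3% and 52.7% in the obesity libraries and 2.10% in control. Sod1 held 82.8% and 44.1% with resveratrol, 48.2% and 41.7% in obesity and 93.2% in control. The Sod2 share lay between 4.70% and 6.49%. With the union of all annotated exons as the length, the Sod3 share was 39.4% and 83.7% with resveratrol, 79.6% and 84.0% in obesity and 10.5% in control. The Sod1 share by that length was far smaller in the obesity libraries, at 13.7% and 10.7%. It was 47.7% and 11.7% with resveratrol and 75.6% in control. The Sod2 share by that length was 12.9% and 4.58% with resveratrol, 6.68% and 5.26% in obesity and 13.9% in control. The low Sod3 share in control and resveratrol library 1 was seen with both lengths. Sod3 led in obesity library 2 with both lengths, and in obesity library 1 with the exon union only.

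**Figure D2:**
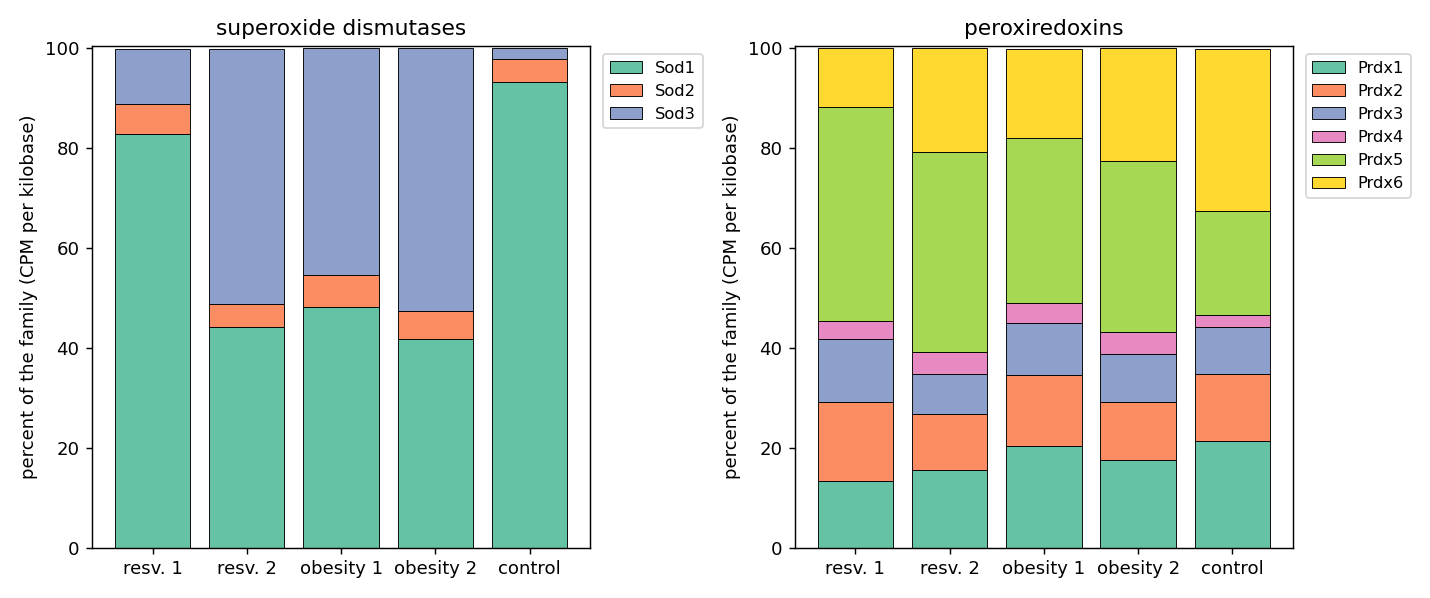
Share of each gene in the summed CPM per kilobase of principal transcript of its family, in percent, for the superoxide dismutases and the peroxiredoxins in each of the 5 libraries. Sod1 fills 93.2% of its family in control and 82.8% in resveratrol library 1, and the Prdx6 share is largest in control, at 32.6%.

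Cat, the gene for the peroxisomal catalase, was at 129 and 640 CPM with resveratrol, at 619 and 744 CPM in obesity and at 28.8 CPM in control (95% exact interval 26.9 to 30.9 CPM). Resveratrol library 2 lay between the obesity libraries, and resveratrol library 1 stood 4.98-fold below its partner. The obesity mean of 682 ± 88.9 CPM (n = 2) was 23.6-fold the control level. Relative to the adipocyte marker sum of its own library, Cat amounted to 2.07% and 2.32% with resveratrol, 2.56% and 2.67% in obesity and 5.79% in control. For Sod3 these shares were 2.48% and 4.76% with resveratrol, 4.21% and 4.37% in obesity and 6.34% in control. On this scale every member of the set, not only these genes, was highest in control, where the adipocyte markers summed to 498 CPM. Prdx6 amounted to 3.13% and 1.53% with resveratrol, 1.55% and 1.64% in obesity and 112% in control.

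The RefSeq promoter table (GRCm38.p6) held 8 of the 10 members, and Sod3 and Prdx6 were not among them. The promoters of Cat and Prdx2 are shown because these were the members with the widest and the narrowest range of levels among those 8, and that of Prdx1 because it held both stress-response motifs that were searched. They were chosen after the levels were seen. Each line gives the 250 bases before the annotated start, 5′ to 3′ on the gene's strand, at chr2:103485154-103485403 (minus strand) for Cat, chr8:84969372-84969621 (plus strand) for Prdx2 and chr4:116685349-116685598 (plus strand) for Prdx1. Capitals mark matches on either strand to 5 motifs. These were the TATA box, searched as TATAAA, the CCAAT box, searched by those letters, the GC box, searched as GGGCGG, the AP-1 site, searched as TGANTCA, and the core of the antioxidant response element, searched as TGACNNNGC.

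Cat: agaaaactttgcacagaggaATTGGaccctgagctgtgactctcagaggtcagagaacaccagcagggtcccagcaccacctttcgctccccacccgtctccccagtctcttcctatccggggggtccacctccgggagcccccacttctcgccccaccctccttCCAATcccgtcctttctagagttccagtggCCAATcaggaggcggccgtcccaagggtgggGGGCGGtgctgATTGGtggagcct
Prdx2: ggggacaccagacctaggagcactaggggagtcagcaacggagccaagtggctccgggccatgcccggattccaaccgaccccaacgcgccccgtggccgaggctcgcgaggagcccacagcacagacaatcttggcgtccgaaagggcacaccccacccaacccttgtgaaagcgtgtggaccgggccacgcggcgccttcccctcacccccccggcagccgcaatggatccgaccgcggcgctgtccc
Prdx1: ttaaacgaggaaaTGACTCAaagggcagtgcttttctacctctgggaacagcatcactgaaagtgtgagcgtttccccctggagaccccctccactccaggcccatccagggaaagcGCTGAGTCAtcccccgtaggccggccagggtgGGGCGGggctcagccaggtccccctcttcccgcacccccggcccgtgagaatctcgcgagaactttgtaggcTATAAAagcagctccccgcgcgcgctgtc

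The Cat window held 4 CCAAT matches and 1 GC box and none of the other 3 motifs. Of 32851 promoter windows of the same length, 33.8% held CCAAT and 32.7% the GC box. The Prdx2 window held none of the 5 motifs. Prdx1 had 2 AP-1 matches, a motif found in 6.75% of windows, and 1 match to the antioxidant response element core, found in 10.2%. That last match shares its bases with the AP-1 match that lies nearer to the start. The TATA box letters, present in 12.4% of windows, began 29 bases before the start in Prdx1 and 37 bases before it in Sod1. A match describes letters and does not show that a factor binds there.

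Prdx1 and Prdx2 encode the cytosolic peroxiredoxins, which use 2 cysteines and depend on thioredoxin. Prdx1 was at 215 and 303 CPM with resveratrol, at 407 and 341 CPM in obesity and at 351 CPM in control. Both resveratrol libraries were below both obesity libraries, and control lay between the obesity libraries. Prdx2 had the narrowest range of the set, at 164 and 142 CPM with resveratrol, at 187 and 148 CPM in obesity and at 142 CPM in control. Resveratrol and obesity overlapped for this gene.

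Prdx3 encodes the peroxiredoxin of the mitochondrial matrix, and Prdx5 a form found in mitochondria, peroxisomes and cytosol. Prdx3 was at 129 and 99.4 CPM with resveratrol, at 135 and 122 CPM in obesity and at 99.8 CPM in control. The resveratrol and obesity libraries overlapped, and both obesity libraries were above control. Prdx5 was at 376 and 428 CPM with resveratrol, at 363 and 367 CPM in obesity and at 187 CPM in control. Both resveratrol libraries lay just above the obesity pair, and control stood at 51.2% of the obesity mean.

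Prdx4, the gene for the peroxiredoxin of the endoplasmic reticulum and secretory route, had the lowest level per kilobase in its family. It was at 26.2 and 38.0 CPM with resveratrol, at 33.2 and 37.5 CPM in obesity and at 17.5 CPM in control. The resveratrol libraries spanned the obesity pair, and control was lowest. Prdx6, the gene for the peroxiredoxin with 1 catalytic cysteine, which also acts as a phospholipase, was at 194 and 421 CPM with resveratrol, at 374 and 457 CPM in obesity and at 557 CPM in control. Control was the highest library and resveratrol library 1 the lowest, a pattern no other member had. Within the family, per kilobase of principal transcript, Prdx6 held 11.7% and 20.8% with resveratrol, 18.0% and 22.6% in obesity and 32.6% in control, and Prdx5 held 42.8% and 40.0% with resveratrol, 33.0% and 34.2% in obesity and 20.7% in control. The 6 peroxiredoxins together summed to 1105 and 1432 CPM with resveratrol, 1499 and 1474 CPM in obesity and 1354 CPM in control.

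**Figure D3:**
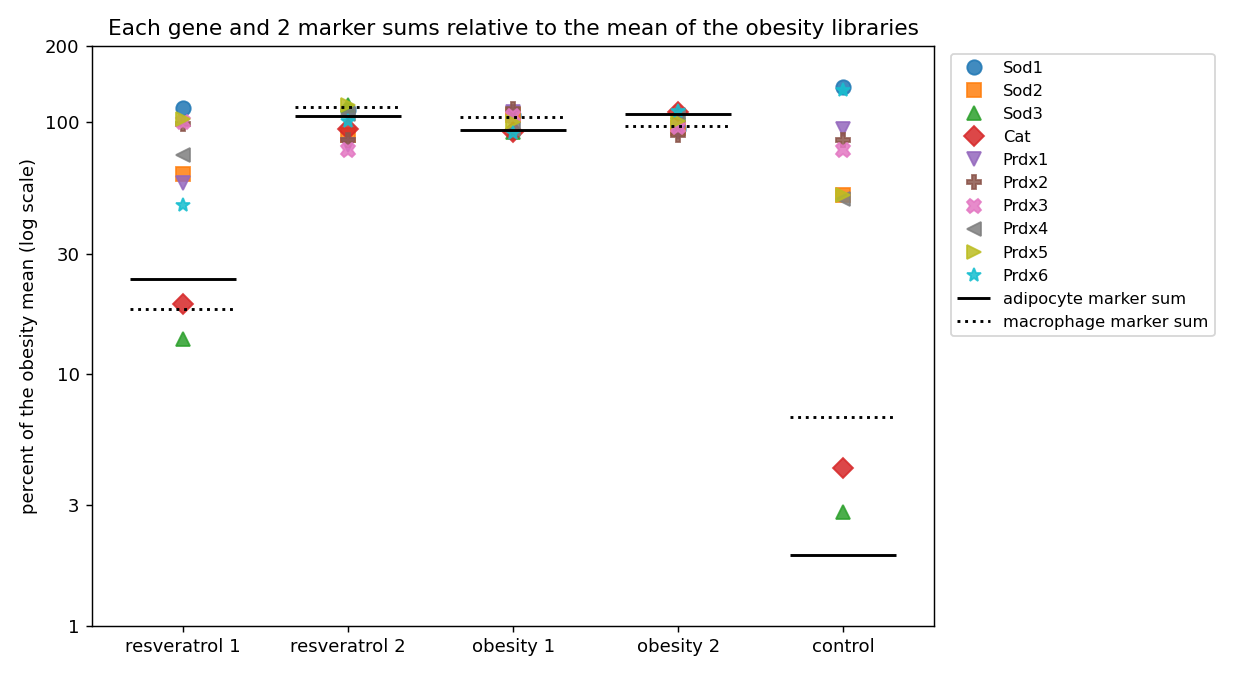
Each gene and the summed adipocyte and macrophage markers in each library as a percent of their mean in the obesity libraries, on a log axis; coloured symbols are single genes and black lines are marker sums. In resveratrol library 1 Cat (18.9%) and Sod3 (13.7%) lie beside the marker sums, in control Cat (4.23%) and Sod3 (2.82%) lie between them, and the other 8 genes stay between 46.7% and 137% of the obesity mean.

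Resveratrol against obesity asked how the treatment altered the enzymes on the high-fat diet. No member stood clearly apart: Prdx5 and Sod1 were slightly higher in both resveratrol libraries, Prdx1 and Sod2 lower, and the other 6 overlapped. Of all genes tested, 16.9% were higher without overlap and 16.7% lower without overlap, against 2 and 2 of the 10 members. Prdx1 averaged 259 ± 62.7 CPM with resveratrol and 374 ± 46.5 CPM in obesity (SD, n = 2 each), a log2 difference of -0.53 (95% interval -1.54 to 0.47). Sod2 averaged 163 ± 40.3 and 217 ± 17.4 CPM in resveratrol and obesity, a log2 difference of -0.41 (-1.27 to 0.46). The interval of Sod1 was -0.59 to 0.91 and that of Prdx5 -0.75 to 1.03.

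Cat and Sod3 had the widest intervals, and their resveratrol libraries lay 4.98-fold and 8.53-fold apart. Cat had a log2 difference of -0.83 (-3.16 to 1.5) and Sod3 one of -0.61 (-3.57 to 2.35). Without resveratrol library 1 these were -0.08 and 0.24, and without resveratrol library 2 they were -2.40 and -2.86. In edgeR's quasi-likelihood test 0 members passed an adjusted p of 0.05, nor did any gene (0% of 24779), and the smallest adjusted p of a member was 0.899. At an unadjusted p under 0.05, 0 members and 2.34% of all genes passed, and DESeq2 called 0 members and 0.694% of genes. Without resveratrol library 2, edgeR called Sod3, Cat and Prdx6 as lower, with adjusted p from 0.00198 to 0.0327, beside 9.6% of all genes called lower. That fit sets the library rich in smooth muscle transcripts against the obesity pair, which alone supplies the spread. The median log2 difference was -0.29 over the members and 0.05 over all genes tested.

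**Figure D4:**
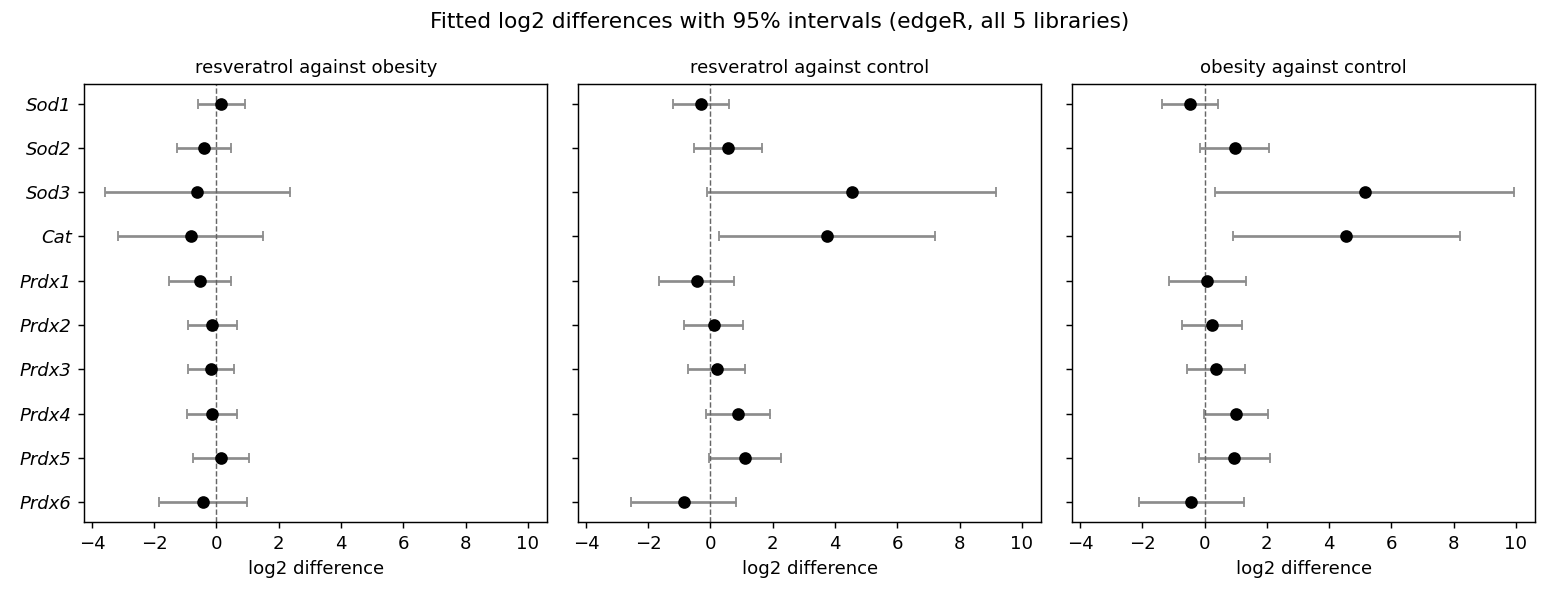
Fitted log2 differences of the 10 genes (points) with 95% intervals (bars) in the 3 comparisons, from 1 edgeR fit of all 5 libraries; the dashed line marks no difference. The intervals of Cat exclude 0 in both comparisons with control (0.26 to 7.22 for resveratrol, 0.91 to 8.21 for obesity) before any adjustment for the number of genes, and that of Sod3 does so for obesity alone (0.34 to 9.95).

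Obesity against control asked how the enzymes differed between high-fat and standard feeding. Cat and Sod3 were far higher in both obesity libraries, Sod2, Prdx4 and Prdx5 were 1.95-fold to 2.02-fold higher in the mean, Sod1 and Prdx6 were lower, and Prdx1, Prdx2 and Prdx3 stood at 1.07, 1.18 and 1.29 times control. In the fit the log2 difference was 4.56 for Cat (SE 1.33) and 5.15 for Sod3 (SE 1.75). It was 1.02 for Prdx4 (SE 0.379), 0.97 for Sod2 (SE 0.405) and 0.96 for Prdx5 (SE 0.418). Sod1 differed by -0.45 (interval -1.35 to 0.44) and Prdx6 by -0.42 (-2.12 to 1.28). Both obesity libraries were above control for 7 members and below it for 2, set against 40.8% and 48.6% of all genes tested.

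In edgeR's test 0 of the 10 members passed in this comparison, as did 0% of all genes, with an adjusted p of 0.184 for Cat and 0.197 for Sod3. At an unadjusted p under 0.05 these 2 members passed, beside 24.3% of all genes. DESeq2 called the same 2, with adjusted p of 0.000362 for Cat and 0.00077 for Sod3, among 16.8% of all genes. Sod2, Sod3, Cat, Prdx4 and Prdx5 were called in edgeR when either resveratrol library was left out, with adjusted p from 0.000117 to 0.0202. All 5 were higher, as were 20.3% of all genes without resveratrol library 1 and 19.5% without resveratrol library 2. In both fits all spread came from the obesity pair. The control library was alone in its group and was assumed to vary like the others. Diet cannot be told apart here from that library's low content of fat tissue transcripts or from its 61829 CPM of epididymis markers.

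Resveratrol against control uses the same libraries as the other comparisons, and Cat and Sod3 again had the largest differences of the 10 members. Cat had a log2 difference of 3.74 (SE 1.27) and Sod3 of 4.54 (SE 1.69). Prdx5 differed by 1.10 (SE 0.421), with 376 and 428 CPM in the resveratrol libraries against 187 CPM in control. Both resveratrol libraries stood above control for 6 members and below it for 3, against 37.7% and 41.0% of all genes. By edgeR 0 members and 0% of genes passed, with adjusted p of 0.261 for Cat and 0.273 for Sod3. Only Cat had an unadjusted p under 0.05 in that test, which 18.5% of genes had. DESeq2 called Sod3, Cat and Prdx5, with adjusted p from 0.0054 to 0.037, beside 11.3% of all genes. Without resveratrol library 1 edgeR called Sod2, Sod3, Cat, Prdx4 and Prdx5 (adjusted p from 0.000164 to 0.0447), beside 30.7% of all genes. Without resveratrol library 2 it called Sod3, Cat, Prdx5 and Prdx6 (adjusted p from 0.00489 to 0.0406), beside 17.2% of all genes. These fits compare 1 library with 1 library, both assumed to vary like the obesity pair, the only source of spread. Resveratrol library 1 stood 4.88-fold above control for Sod3 and resveratrol library 2 stood 41.6-fold above it. For Cat these ratios were 4.46 and 22.2.

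Genes that recycle or feed these enzymes were counted by list. None of their members passed edgeR's adjusted p of 0.05 in any comparison, so the following are levels and directions. Over all genes DESeq2 called 10% higher and 6.77% lower in obesity than in control, and each list's DESeq2 count is read against these shares. Of the 13 thioredoxin and peroxiredoxin recycling genes, 8 were higher and 5 lower in obesity than in control, with 2 higher by DESeq2 and a median log2 difference of 0.38, against -0.10 over all genes. Txnip, whose product binds and inhibits thioredoxin, was at 676 and 992 CPM with resveratrol, at 847 and 839 CPM in obesity and at 138 CPM in control. In resveratrol against obesity, lower fitted differences outnumbered higher ones in every pathway list, and 10 of the 12 adipocyte markers were lower. The 2 resveratrol libraries differed in this. The pathway list medians were 17.8% to 83.6% of the obesity level in resveratrol library 1 and 89.4% to 104% in resveratrol library 2. For the adipocyte markers the medians were 21.2% and 115%, and without overlap 2 of the 12 were lower and 1 was higher. In the recycling list 11 of the 13 were lower with resveratrol than in obesity, with a median of -0.29 against 0.05 over all genes. Of these 11, Srxn1, the gene for the sulfiredoxin that repairs overoxidised peroxiredoxins, was at 55.7 and 47.1 CPM with resveratrol, at 67.9 and 68.0 CPM in obesity and at 71.1 CPM in control. Txn1, the cytosolic thioredoxin gene, was at 133 and 113 CPM with resveratrol, at 168 and 144 CPM in obesity and at 159 CPM in control. Both genes were lower in each resveratrol library than in each obesity library, like Prdx1.

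Peroxisome genes, whose products share the organelle of catalase, were counted next. Of the 22 tested genes, 15 were higher and 7 lower in obesity than in control, 7 of them higher and 2 lower by DESeq2. The median peroxisome gene stood at 64.5% of its obesity level in resveratrol library 1, at 99.1% in resveratrol library 2 and at 65.1% in control, where Cat stood at 18.9%, 93.9% and 4.23%. Medians of this kind, above, here and below, are over genes averaging 1 CPM or more in obesity. In control, single peroxisome genes lay far from the median in both directions. Ephx2, an epoxide hydrolase gene, was at 110 and 150 CPM with resveratrol, at 446 and 290 CPM in obesity and at 37.9 CPM in control. Acox3, an acyl-CoA oxidase gene, was highest in control, at 29.2 and 81.1 CPM with resveratrol, at 72.7 and 64.9 CPM in obesity and at 365 CPM in control.

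Among genes that produce superoxide or peroxide most were higher in obesity than in control. Of 14 tested, 12 were higher and 2 lower in obesity than in control, 9 of them called higher by DESeq2, with a median log2 difference of 3.47. The median producer stood at 17.8% of its obesity level in resveratrol library 1, at 102% in resveratrol library 2 and at 8.91% in control. Ncf4, a subunit gene of the phagocyte NADPH oxidase, was at 11 and 28.9 CPM with resveratrol, at 29.7 and 29.0 CPM in obesity and at 0.907 CPM in control. Maoa, the monoamine oxidase A gene, was at 34.8 and 42.6 CPM with resveratrol, at 82.8 and 86.2 CPM in obesity and at 7.53 CPM in control. Both resveratrol libraries were below both obesity libraries for Maoa, a log2 difference of -1.13 (SE 0.238) with an adjusted p of 0.899 in edgeR.

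The glutathione list had 5 genes higher and 7 lower in obesity than in control, with a median log2 difference of -0.54, and DESeq2 called 1 higher and 4 lower. Slc7a11, the cystine transporter gene that limits glutathione synthesis, was at 1.04 and 1.24 CPM with resveratrol, at 2.40 and 1.90 CPM in obesity and at 60.9 CPM in control. Of the 10 genes of NADPH supply, 6 were higher and 4 lower in obesity than in control, and DESeq2 called 4 higher and 1 lower. Idh1, the cytosolic isocitrate dehydrogenase gene, was at 176 and 239 CPM with resveratrol, at 315 and 281 CPM in obesity and at 28.1 CPM in control. Nnt, the transhydrogenase gene that supplies mitochondrial NADPH and is mutated in the C57BL/6J substrain, had counts of 11 and 10 with resveratrol, 7 and 5 in obesity and 26 in control, or 0.238 to 0.907 CPM.

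Among the 7 tested genes of metal loading, 5 were higher and 2 lower in obesity than in control, and DESeq2 called 1 lower. Slc31a1, a copper importer gene, was at 43.8 and 50.4 CPM with resveratrol, at 54.2 and 51.5 CPM in obesity and at 122 CPM in control. Of 13 regulators of antioxidant genes, 9 were higher and 4 lower in obesity than in control, and DESeq2 called 1 higher. With resveratrol 5 of these regulators were higher and 8 lower than in obesity. Mafk, a small Maf partner gene of the NRF2 factor, was at 35.6 and 57.1 CPM with resveratrol, at 44.6 and 40.6 CPM in obesity and at 19.0 CPM in control. Sirt3, the gene for the mitochondrial deacetylase that acts on the Sod2 protein, was at 21.2 and 12.0 CPM with resveratrol, at 8.50 and 8.66 CPM in obesity and at 10.1 CPM in control. Both resveratrol libraries exceeded both obesity libraries for Sirt3, with an adjusted p of 0.899 in edgeR.

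Likeness of pattern was measured as the root mean square difference between log2 CPM profiles over the 5 libraries, each centred on its own mean, among 10944 other genes averaging 10 CPM or more. Sod3 and Cat were each other's nearest member, at 0.332 log2 units, and Sod3 was at least 1.71 and Cat at least 1.41 log2 units from every other member. The nearest gene of all was Hcls1 for Cat, at 0.0434 log2 units, and Nfam1 for Sod3, at 0.0634. Hcls1 was at 14.8 and 69.7 CPM with resveratrol, at 67.1 and 81.3 CPM in obesity and at 3.28 CPM in control. Nfam1 was at 9.22 and 80.1 CPM with resveratrol, at 55.0 and 72.5 CPM in obesity and at 1.74 CPM in control. The closest pair of members was Prdx2 and Prdx3, at 0.095 log2 units, followed by Sod2 and Prdx4 at 0.174 and by Prdx4 and Prdx5 at 0.185. The nearest genes of the others were Paf1 for Sod1, Mcrip2 for Sod2, Ralgds for Prdx1, Yae1d1 for Prdx2, Mmadhc for Prdx3, Klhl22 for Prdx4, Zfp664 for Prdx5 and Agpat3 for Prdx6, at 0.0177 to 0.0754 log2 units. These are descriptions over 5 libraries, with no test.

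Some members share sequence with other genes, which limits their counts. Gm8566, a processed pseudogene 97.8% identical to Sod1 over 465 bases, was counted at 59.1 and 56.7 CPM with resveratrol, at 43.8 and 50.2 CPM in obesity and at 49.3 CPM in control, up to 30.4% of the Sod1 level. Gm7204, 97.5% identical to Prdx1 over 597 bases, was at 32.8 and 46.4 CPM with resveratrol, at 55.0 and 52.2 CPM in obesity and at 53.3 CPM in control, up to 15.3% of Prdx1. The copies of Prdx2 summed to at most 10.9 CPM and those of Prdx6 to at most 2.65 CPM. The highest of the Prdx6 copies, the coding gene Prdx6b, was at 2.51 CPM in control and at most 0.136 CPM elsewhere. Stretches of 200 to 210 bases of Sod2 were shared with 11 other genes, whose whole levels summed to 865 and 501 CPM with resveratrol, 507 and 542 CPM in obesity and 477 CPM in control. How many of those counts lie in the shared stretches is not known. Cat, Sod3, Prdx3 and Prdx4 had no match at 90% identity over 200 bases. Exons of Prdx5 overlap the opposite-strand gene Trmt112 by 409 bases, and those of Prdx2 overlap Junb by 173 and Rnaseh2a by 177 bases. The strand setting of the counting is not given in the sources used here, so reads of such partners may not be told apart. Small differences in Sod1, Sod2, Prdx1, Prdx2 and Prdx5 are uncertain to that extent.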

How the data were processed

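Stranded poly-A libraries were sequenced as paired-end reads, per the labels' protocols. Per the submitters' processing notes, the authors checked reads with FastQC and made the deposited counts with featureCounts on GRCm39. The sources used here name no aligner, annotation release, strand setting or version. Every value column was used, and 65.7% of identifiers matched a symbol.

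Analysis used R 4.3.3 with edgeR 4.0.16: filterByExpr by group (minimum count 10, minimum total 15), TMM scaling, and glmQLFit with robust estimation on the 5 libraries together. Each contrast was adjusted with Benjamini-Hochberg over all 24779 genes at 0.05. Standard errors are the log2 difference divided by the square root of F. Exact binomial intervals cover counting error only. Alternatives used DESeq2 1.42.0 and limma 3.58.1. The fit was also run on simulated data with less spread between libraries than the fitted coefficient of variation of 62.2%. That run does not show how the fit performs at the spread of these libraries. Copies were searched with blastn 2.17.0 among GENCODE M21 transcripts. Figures used Python 3.11.15 and matplotlib 3.10.9.

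The members and lists were chosen with earlier results of these data known. All members are named. From each pathway list up to 2 genes with the smallest p per comparison could be named, plus Nnt and, for each member, the gene with the nearest profile.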

Additional observations from a re-analysis of the deposited data

How the results depend on the processing

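The number of genes called depended on the fit. In obesity against control it was 0 in edgeR, 2575 without the filter on low counts, 4157 with DESeq2 and 9269 with only the groups compared, and 0 to 9227 when single libraries were left out. In resveratrol against obesity it was 0, 25 without the filter, 172 with DESeq2, 0 to 4758 with single libraries left out and 66 without the control and resveratrol 1 libraries together. For resveratrol against control it was 0, 1671 without the filter, 2801 with DESeq2, 80 with limma-voom and 0 to 7469 with single libraries left out. Among the fits that left out a single library, calls appeared only when it was a resveratrol library. In those fits all spread came from the obesity pair. In resveratrol against obesity far more genes were called without resveratrol library 2 than without resveratrol library 1. The cause of these and the other shifts was not tested. Without the filter the median log2 difference of all genes in resveratrol against control moved to 0.23, against 0.05 with it.

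Signs turned for 5 members in resveratrol against obesity and 1 in obesity against control. In obesity against control Prdx1 was 0.09, -0.01 under the stricter filter, and -0.02 to 0.22 with single libraries left out. In resveratrol against obesity the log2 difference with single libraries left out ranged from -2.86 to 0.24 for Sod3, from -0.29 to 0.06 for Prdx2, from -0.36 to 0.01 for Prdx3, from -0.43 to 0.11 for Prdx4 and from -1.09 to 0.03 for Prdx6. Without the control and resveratrol 1 libraries together it was 0.24 for Sod3, 0.11 for Prdx4 and 0.03 for Prdx6. Counting each member, comparison and alternative once, 338 kept their direction and side of the threshold, 32 became called and 10 turned sign. No member was called in the edgeR fit that the alternatives are set against, so no call could be lost. The alternatives refit the same libraries, so the count of 338 is not a test of robustness.

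The replicate numbers come from sample titles and name no shared animal or batch. Deviations of equal numbers correlated at 0.282 across genes. With the replicate block 0 genes were called in each comparison, and the log2 difference of Cat in obesity against control was 4.00, against 4.56 without the block. In resveratrol against obesity it was -1.24 for Cat and -1.31 for Sod3 with the block, against -0.83 and -0.61 without it. Each group holds at most 2 libraries, so a small difference in any member was not detectable.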
